A study of Homo sapiens with 14 samples.

Results

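Aminoacyl-tRNA synthetases were followed as a family in PANC-1, an established line of human pancreatic carcinoma cells. The members were 35 named genes, 19 for the cytosolic enzymes (symbols ending in 1, with FARSA and FARSB) and 16 for the mitochondrial ones (symbols ending in 2), out of 18129 genes on the arrays. A gene was represented by its brightest probe set among those that named it alone, and all 35 members were bright enough to be among the 10877 genes tested. Serum was lowered to 1% for 24 h before a treatment of 48 h. The groups were TGFb1 (5 ng/ml) with acriflavine at 2.5 µM (3 arrays), TGFb1 with sodium valproate at 2 mM (3 arrays), TGFb1 alone (4 arrays) and control (4 arrays), and serum reduction was common to all of them. TGFb1 is a cytokine that drives epithelial cells towards a mesenchymal state, acriflavine consists of acridine dyes, which bind nucleic acids, and valproate inhibits histone deacetylases. The cells are 1 cell line, and the labels call the replicates biological without saying what a replicate number marks, so the p-values measure the spread between these samples.

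Each synthetase joins an amino acid to its tRNA, the step that sets which codon calls for which residue. Cytosolic and mitochondrial protein synthesis mostly use separate enzymes, both encoded in the nucleus. GARS1, for glycine, and KARS1, for lysine, are exceptions, since each gene gives both a cytosolic and a mitochondrial form. EPRS1 carries the enzymes for glutamate and proline in a single chain, and FARSA and FARSB are the subunits of the cytosolic enzyme for phenylalanine. When amino acids are short, uncharged tRNA activates the kinase GCN2 (gene EIF2AK4), and the transcription factor ATF4 that is then translated is known to induce many cytosolic synthetase genes along with amino acid synthesis genes.

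Values are RMA log2 intensities as deposited, and a change is a difference of group means on that scale ± the standard error (SE) of a linear model fitted with limma over all genes and arrays. A member rose or fell where its adjusted p (Benjamini-Hochberg over the 10877 genes) was under 0.05. A probe set's brightness says nothing of a gene's level relative to another gene. Values are therefore compared between groups only, also where a difference of 2 genes is taken. In bulk RNA, fewer cells of a type and less RNA per cell cannot be told apart. All 5 markers of pancreatic duct epithelium were tested genes, whereas 0 of 4 measured leukocyte markers, 0 of 5 endothelial ones, 1 of 5 fibroblast ones and 2 of 5 hepatocyte ones were bright enough to be tested. Because brightness does not rank genes, these counts do not measure which cells were present. TGFb1 array 4 stood farthest from its group, with a standard deviation (SD) from the group mean of 0.375 over genes. TGFb1 array 2 (0.256) and control array 4 (0.25) followed, and the other arrays lay between 0.0665 and 0.16.

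Acriflavine on top of TGFb1 was set against TGFb1 alone. Of the 19 cytosolic synthetases, 13 fell, 3 rose and 3 did not pass the test. Among all genes tested, 19.1% fell and 24.5% rose in this comparison. The median change of the cytosolic members was -0.65, against 0.03 over all genes, and 8 of them fell at least 2-fold. Of the 16 mitochondrial synthetases, 3 fell, 4 rose and 9 did not pass, with a median change of 0.09 and 0 falls of 2-fold. These mitochondrial shares were near those over all genes. Each acriflavine array gave a lower cytosolic class median (10.80, 10.90 and 10.84) than any TGFb1 array (11.82, 11.74, 11.78 and 11.15), and TGFb1 array 4 was the lowest of its group. Of the duct epithelium markers 3 of 5 rose with acriflavine and 0 fell, and COL3A1, a collagen gene and the tested fibroblast marker, changed by -2.22 ± 0.134. SERPINA1, a hepatocyte marker too dim to be tested, was at 5.88 to 6.09 with acriflavine, against 4.79 to 5.23 with TGFb1 alone. ITGAM, a leukocyte marker also too dim, was at 5.88 to 6.13 with acriflavine, against 5.16 to 5.58 with TGFb1 alone. The other markers too dim to be tested overlapped between these groups. Among them were ALB (4.62 to 4.95 with acriflavine, against 4.62 to 5.20) and PTPRC (3.63 to 4.05 with acriflavine, against 3.73 to 3.94). The part of these markers in the synthetase changes was not tested.

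**Figure D1:**
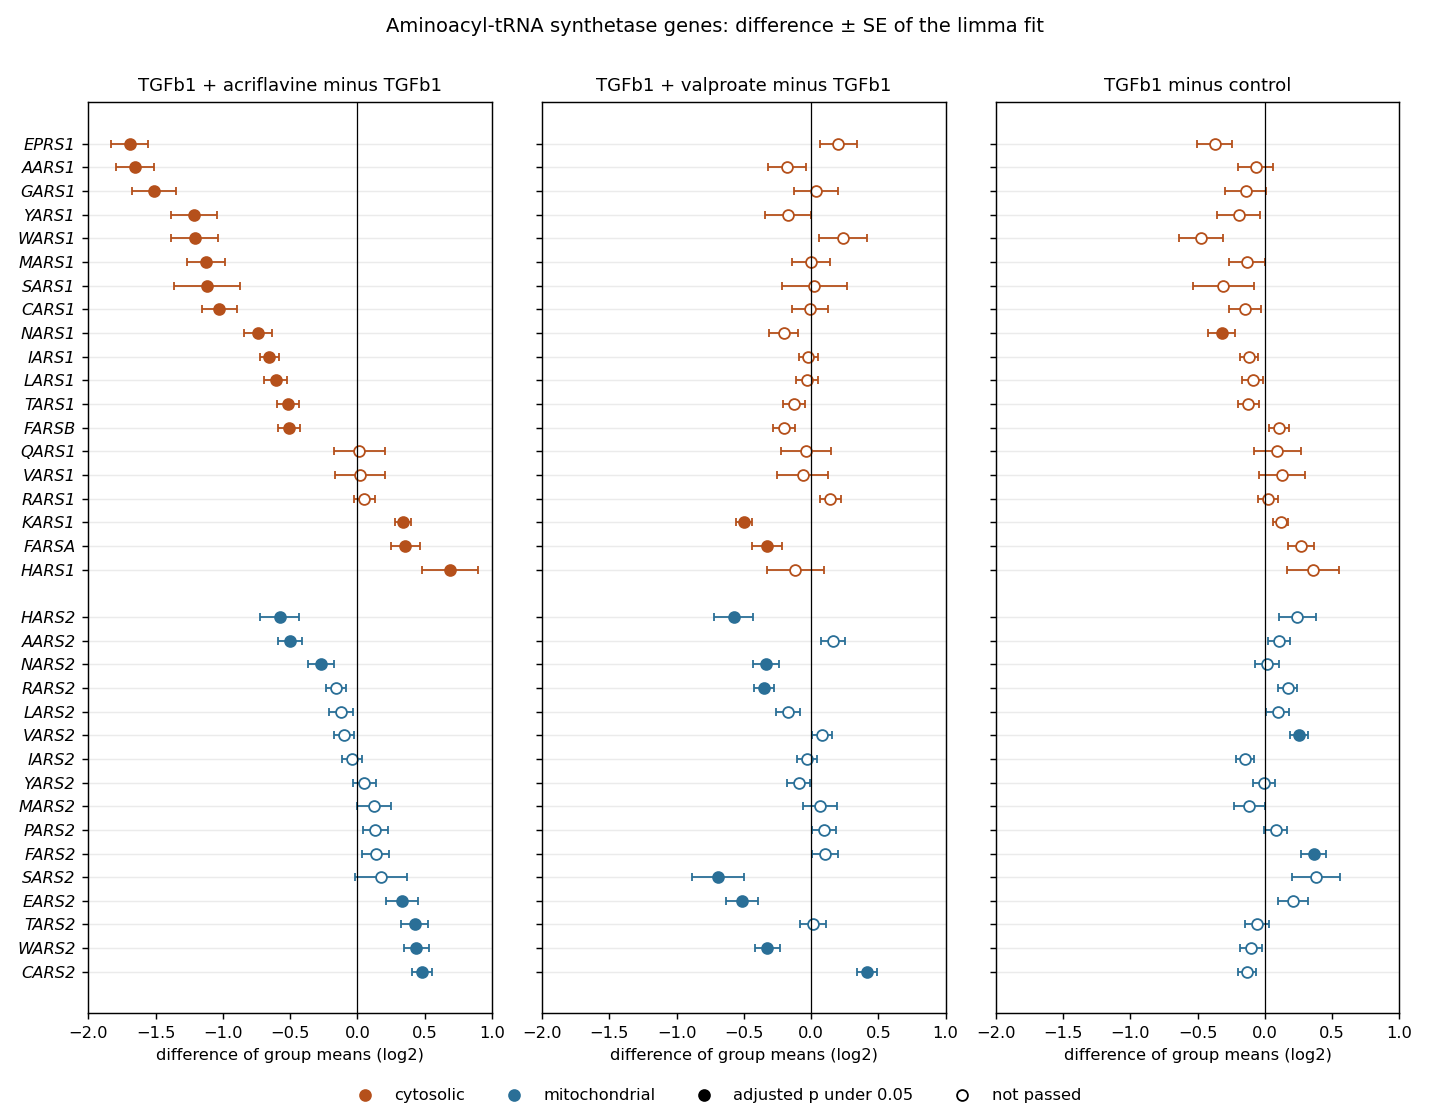
Change of each member (log2, difference of group means ± SE of the fit) for acriflavine with TGFb1 minus TGFb1, valproate with TGFb1 minus TGFb1 and TGFb1 minus control; filled points passed the adjusted p of 0.05. The 13 cytosolic members that fell lie well to the left of 0 in the acriflavine panel, down to -1.69 for EPRS1, and the mitochondrial members scatter on both sides of 0 in every panel.

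**Figure D2:**
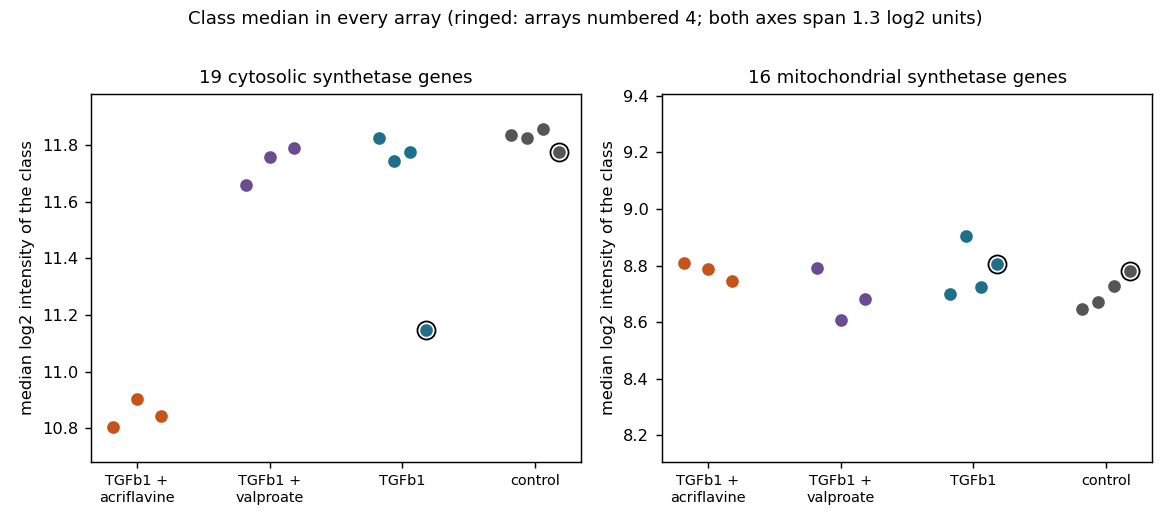
Median log2 intensity of the 19 cytosolic and the 16 mitochondrial members in each array, on axes of equal span. The 3 acriflavine arrays lie between 10.80 and 10.90 in the cytosolic panel, below all other arrays, with TGFb1 array 4 (ringed) next at 11.15.

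EPRS1, the joint glutamate and proline enzyme, had the largest fall of the family. Its values were 9.64, 9.49 and 9.90 in the acriflavine arrays, against 11.57, 11.13, 11.65 and 11.15 in the TGFb1 arrays. The groups were far apart, and the change was -1.69 ± 0.139 (adjusted p = 6.88e-07 by limma), or 0.309 times the TGFb1 level. AARS1, which charges alanine tRNA, gave 9.12, 9.12 and 8.95 with acriflavine, against 10.85, 10.92, 10.85 and 10.25 with TGFb1 alone (change -1.65 ± 0.141). TGFb1 array 4 was lowest of its group here and still more than a log2 unit above the acriflavine arrays. GARS1, the glycine enzyme, was at 12.14, 12.16 and 12.18 with acriflavine, against 13.95, 13.77, 13.91 and 13.08 with TGFb1 alone (change -1.51 ± 0.165). The acriflavine arrays were almost level with each other, and TGFb1 array 4 again lay between them and the rest of its group.

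YARS1 and WARS1, which charge tyrosine and tryptophan tRNAs and are close relatives in sequence, fell by nearly equal amounts. YARS1 had 10.02, 10.18 and 10.05 with acriflavine, against 11.51, 11.52, 11.46 and 10.69 with TGFb1 alone (change -1.21 ± 0.171). WARS1 had 9.90, 9.89 and 9.82 with acriflavine, against 11.32, 11.27, 11.26 and 10.46 with TGFb1 alone (change -1.21 ± 0.177). In both genes 3 TGFb1 arrays agreed closely, array 4 was lower, and no TGFb1 array reached down to the acriflavine values. WARS1 is also known as an interferon-induced gene.

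MARS1, which charges both initiator and elongator methionine tRNA, had 10.63, 10.66 and 10.61 with acriflavine, against 11.93, 12.01, 11.87 and 11.24 with TGFb1 alone (change -1.13 ± 0.142). SARS1, which charges serine tRNA, had 10.82, 10.90 and 10.84 with acriflavine, against 12.32, 12.21, 12.27 and 11.09 with TGFb1 alone (change -1.12 ± 0.243, adjusted p = 0.00209 by limma). TGFb1 array 4 came close to the acriflavine arrays in SARS1 without overlapping them, and the SE was the widest among the members that fell. CARS1, the cysteine enzyme, had 11.13, 11.06 and 10.99 with acriflavine, against 12.28, 12.31, 12.12 and 11.64 with TGFb1 alone (change -1.02 ± 0.131). The falls of NARS1 for asparagine (-0.74 ± 0.106), IARS1 for isoleucine (-0.65 ± 0.0717), LARS1 for leucine (-0.61 ± 0.083), TARS1 for threonine (-0.52 ± 0.0845) and FARSB (-0.51 ± 0.0824) were under 2-fold. Their acriflavine arrays also lay below every TGFb1 array.

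**Figure D3:**
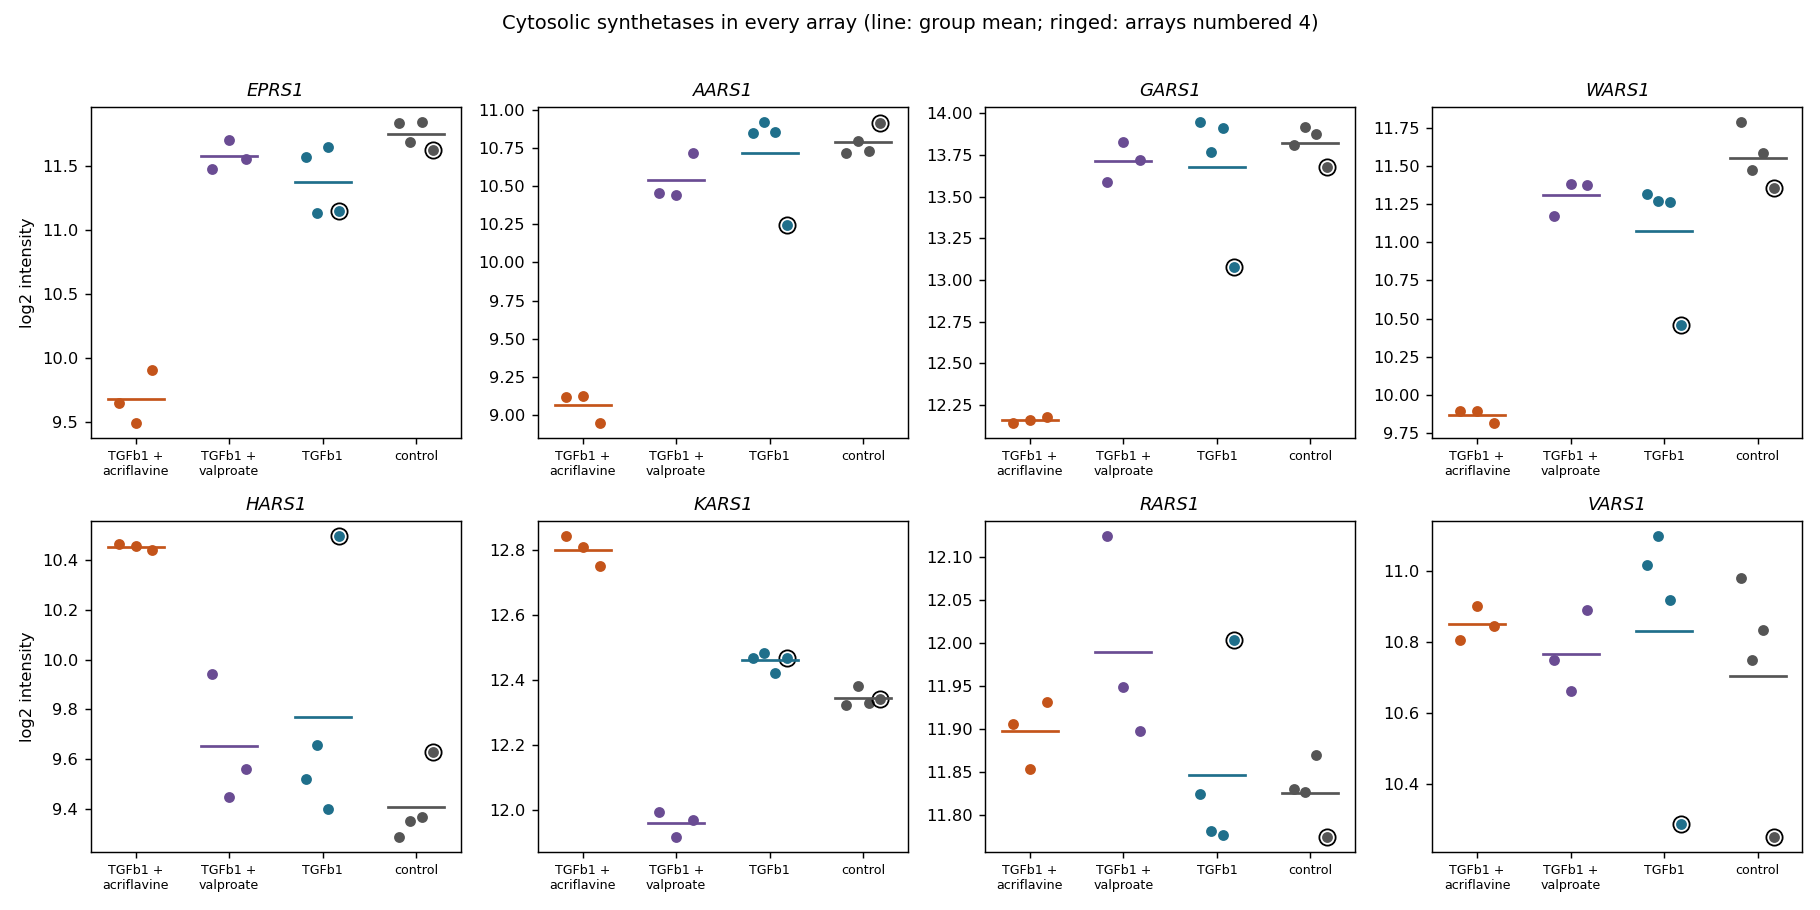
Log2 intensity of 8 cytosolic synthetase genes in every array, with lines at the group means and rings around arrays numbered 4; each panel has its own axis. EPRS1, AARS1, GARS1 and WARS1 are low in the 3 acriflavine arrays, KARS1 is high there and lowest with valproate, and HARS1 in TGFb1 array 4 (10.50) is as high as in the acriflavine arrays.

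The remaining 6 cytosolic members did not fall. KARS1, which charges lysine tRNA in both compartments, had 12.84, 12.81 and 12.75 with acriflavine, against 12.47, 12.48, 12.42 and 12.47 with TGFb1 alone (change 0.34 ± 0.0614, adjusted p = 0.000526 by limma). Every acriflavine array was above every TGFb1 array. HARS1, which charges histidine tRNA, had 10.47, 10.46 and 10.44 with acriflavine, against 9.52, 9.65, 9.40 and 10.50 with TGFb1 alone (change 0.69 ± 0.209, adjusted p = 0.0164). Here TGFb1 array 4 was above the acriflavine arrays and the other 3 TGFb1 arrays below them, so the groups overlapped; without TGFb1 array 4 the change of HARS1 was 0.93, and without TGFb1 array 3 it was 0.56 and lost its call (adjusted p = 0.0508), as it did with the 2 groups fitted alone (adjusted p = 0.0579). FARSA, the catalytic subunit of the phenylalanine enzyme, rose by 0.36 ± 0.109 with overlapping arrays (9.41, 9.51 and 9.17 with acriflavine, against 8.95, 9.18, 8.92 and 8.98 with TGFb1 alone). This call was lost without acriflavine array 1 (adjusted p = 0.0625) or array 2 (adjusted p = 0.0884).

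The subunits of the phenylalanine enzyme were thus called in opposite directions with acriflavine. FARSB, which with FARSA makes up the tetramer, had 10.60, 10.73 and 10.64 with acriflavine, against 11.28, 11.27, 11.14 and 10.98 with TGFb1 alone. All of its acriflavine arrays were below its TGFb1 arrays. The 3 cytosolic members that did not pass were QARS1 for glutamine (0.02 ± 0.187), VARS1 for valine (0.02 ± 0.187) and RARS1 for arginine (0.05 ± 0.0794). QARS1 and VARS1 had wide SEs, and their TGFb1 values were 10.21, 10.56, 10.03 and 10.90 in QARS1 and 11.02, 11.10, 10.92 and 10.29 in VARS1. RARS1 was measured more tightly, with 11.91, 11.85 and 11.93 in the acriflavine arrays, against 11.82, 11.78, 11.78 and 12.00 in the TGFb1 arrays.

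Several cytosolic synthetases are held together in the multisynthetase complex, and these 7 did not move as a unit. EPRS1, MARS1, IARS1 and LARS1 fell, KARS1 rose, and QARS1 and RARS1 did not pass. By the catalytic fold that divides the enzymes into classes, 6 of the 9 class I members fell and 0 rose. Of the 9 class II members, 6 fell and 3 rose. These counts stand beside 19.1% of all genes tested that fell and 24.5% that rose. The class II rises of HARS1 and FARSA had overlapping arrays and lost their calls in some settings. EPRS1, with a domain of each class, was counted in neither.

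Promoter windows from RefSeq (GRCh38.p14, 250 bases before to 50 after the gene start, matched by symbol for 30 of the 35 members) were searched on both strands for TGATGNAA, the core of the element that ATF4 binds as a dimer with a C/EBP factor. The core was in the window of 7 of 16 cytosolic members and 1 of 14 mitochondrial members, YARS2. Of all genes with a window, 4.46% held it in their window, and among all windows 3.62%. LARS1, VARS1, YARS1, AARS2 and VARS2 had no entry. The 7 cytosolic members with a match were AARS1, CARS1, GARS1, IARS1, MARS1, NARS1 and TARS1. For each match 30 bases are shown so that the elements can be compared with each other. Each line reads 5′ to 3′ on the strand of its gene, and capitals mark the match, which reads TTNCATCA where it lies on the other strand.
AARS1 (chr16:70289675-70289704): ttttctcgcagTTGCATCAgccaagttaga
CARS1 (chr11:3057407-3057436): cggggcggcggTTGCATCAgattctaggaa
GARS1 (chr7:30594834-30594863): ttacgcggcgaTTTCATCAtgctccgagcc
IARS1 (chr9:92293692-92293721): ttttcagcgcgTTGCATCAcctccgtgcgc
MARS1 (chr12:57488053-57488082): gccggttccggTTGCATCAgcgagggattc
NARS1 (chr18:57621804-57621833): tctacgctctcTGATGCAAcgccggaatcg
TARS1 (chr5:33440956-33440985): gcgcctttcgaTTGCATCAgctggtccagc
YARS2 (chr12:32756076-32756105): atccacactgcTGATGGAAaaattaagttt

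The match began 187 bases before the gene start in AARS1, 13 before in IARS1, 4 before in MARS1 and 2 before in CARS1. In both MARS1 and CARS1 it runs across the start, and in NARS1 it began 14 bases past the start. CARS1, GARS1 and TARS1 have 2 RefSeq starts each. The match of CARS1 is counted from the start at its first annotated base. In GARS1 and TARS1 the window that holds the match is that of the start farther into the gene. From that start the match began 33 bases before in GARS1 and 2 bases past in TARS1, and from the gene's first annotated base 110 and 271 bases past. In the sequences above, 6 of the 7 cytosolic matches read TTGCATCA or its reverse complement TGATGCAA, and the one in GARS1 reads TTTCATCA. In YARS2, whose transcript did not pass (change 0.05 ± 0.0864), the match lay 197 bases before the start and reads TGATGGAA.

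All 7 cytosolic members with the core fell with acriflavine, from -0.52 for TARS1 to -1.65 for AARS1. Of all 16 cytosolic members with an entry, 11 fell, and of all genes tested 19.1% fell. The share of falls among all genes with the core was not computed. Of the cytosolic members with an entry and no match, EPRS1, WARS1, SARS1 and FARSB fell, HARS1, FARSA and KARS1 rose, and QARS1 and RARS1 did not pass. The largest fall, that of EPRS1, was in a gene without these letters in its window. The search is a description of the windows, and the part of the core in the falls was not tested.

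**Figure D4:**
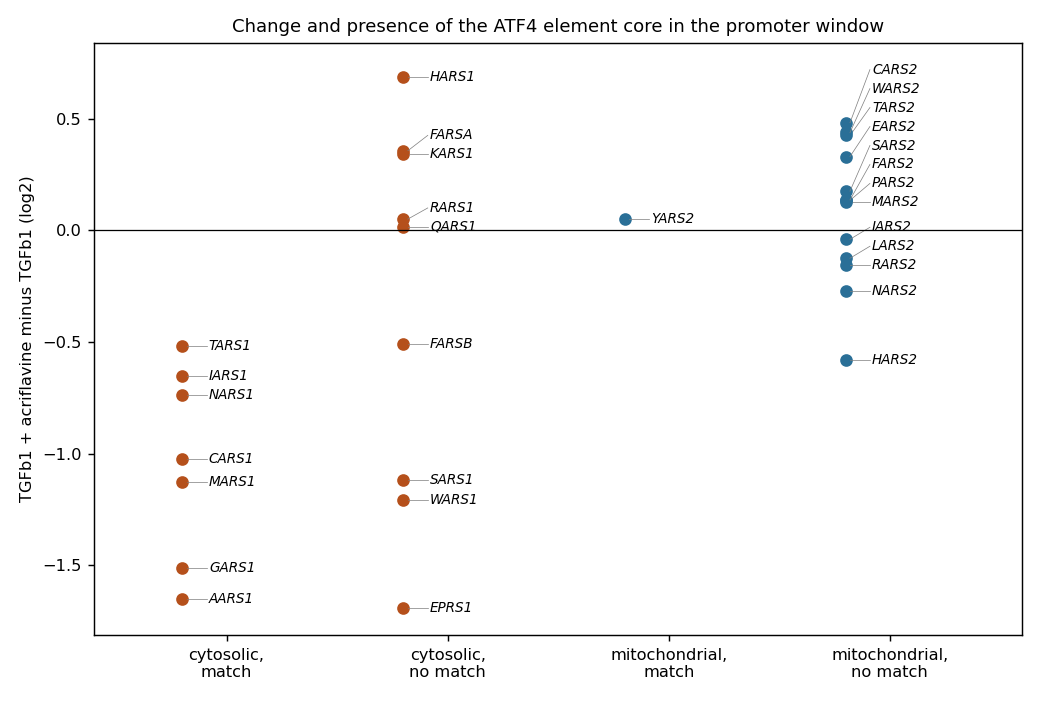
Change with acriflavine (TGFb1 with acriflavine minus TGFb1, log2) for the 30 members with a promoter entry, split by class and by presence of the core TGATGNAA in the window. The 7 cytosolic members with a match lie between -0.52 and -1.65, and the 9 without one lie between -1.69 and 0.69.

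Among the mitochondrial synthetases the changes with acriflavine were smaller and went both ways. HARS2, the histidine enzyme of mitochondria, had 8.61, 8.52 and 8.61 with acriflavine, against 9.04, 9.27, 8.79 and 9.52 with TGFb1 alone (change -0.58 ± 0.147, adjusted p = 0.0058 by limma). AARS2, for alanine, had 7.09, 7.04 and 6.99 with acriflavine, against 7.54, 7.66, 7.38 and 7.59 with TGFb1 alone (change -0.50 ± 0.0879). In both genes the acriflavine arrays lay below all TGFb1 arrays. NARS2, for asparagine, fell by a smaller step (-0.27 ± 0.0969, adjusted p = 0.0364), a call lost when either of acriflavine arrays 1 and 2 or TGFb1 arrays 1 and 3 was left out.

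The 4 mitochondrial members that rose were CARS2, WARS2, TARS2 and EARS2. CARS2, for cysteine, had 9.16, 9.19 and 9.10 with acriflavine, against 8.62, 8.66, 8.71 and 8.69 with TGFb1 alone (change 0.48 ± 0.0728). The groups of CARS2 were well apart on this probe set, but 2 dimmer probe sets of the gene did not rise (-0.73 and -0.03), and the mean of its probe sets changed by -0.09. WARS2, for tryptophan, had 8.43, 8.41 and 8.33 with acriflavine, against 7.94, 8.14, 7.84 and 7.88 with TGFb1 alone (change 0.44 ± 0.0904), and TARS2, for threonine, had 8.61, 8.53 and 8.37 with acriflavine, against 8.11, 8.24, 8.02 and 7.94 with TGFb1 alone (change 0.43 ± 0.0973). Neither gene's groups overlapped. EARS2, for glutamate, rose by 0.33 ± 0.121 with overlapping arrays (adjusted p = 0.0392), and this call was lost when any acriflavine array, TGFb1 array 1 or 3, or control array 2 or 3 was left out, and with the mean of its probe sets (0.18). The other 9 changed by -0.16 (RARS2, for arginine) to 0.18 (SARS2, for serine) without passing.

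For 13 amino acids both the cytosolic and the mitochondrial enzyme were members, which allowed their difference to be taken within each array. With acriflavine the cytosolic minus mitochondrial difference was lower than in every TGFb1 array for 10 pairs. It was higher for 2 (histidine and arginine) and overlapping for 1 (valine). In each of the 10 pairs the cytosolic gene was already counted among the falls. How often all genes or gene pairs separate in this way was not computed, so these counts are a description. For tryptophan the difference was 1.46 to 1.49 in the acriflavine arrays, against 2.58 to 3.43 in the TGFb1 arrays. For cysteine it was 1.86 to 1.97 with acriflavine, against 2.95 to 3.66 with TGFb1 alone. The members of a pair were called in opposite directions for cysteine, threonine, tryptophan and histidine, and in the same direction for alanine and asparagine. The calls for cysteine and histidine did not hold in every setting. CARS2 changed by -0.09 with the mean of its probe sets. HARS1 overlapped between the groups and lost its call with the 2 groups fitted alone or without TGFb1 array 3. In 5 pairs (isoleucine, leucine, methionine, serine and tyrosine) the cytosolic gene alone was called. Neither gene was called for arginine and valine. Where members had further probe sets above the brightness limit (41 probe sets of 23 members), 36 gave the same call as the brightest one in this comparison and 0 gave the opposite call. A further 10 probe sets below the limit were not counted.

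**Figure D5:**
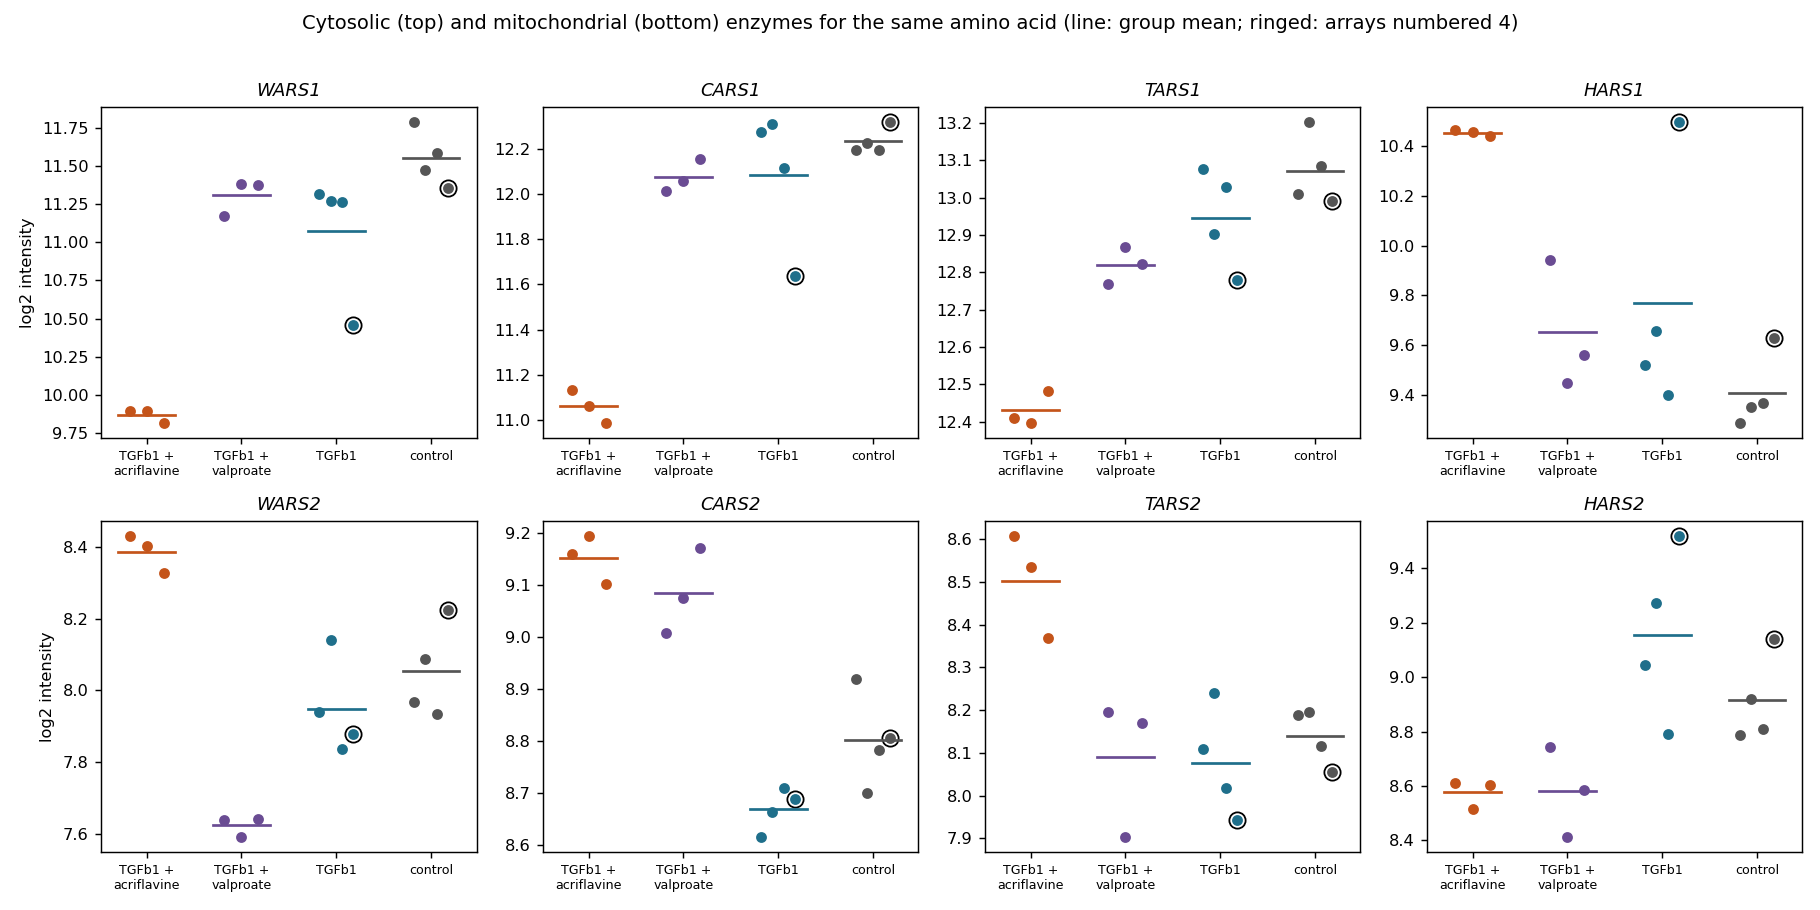
Log2 intensity of the cytosolic (top) and mitochondrial (bottom) gene in every array for the 4 amino acids whose pair was called in opposite directions with acriflavine; lines are group means, rings mark arrays numbered 4, and each panel has its own axis. In the acriflavine arrays WARS1, CARS1 and TARS1 are low and WARS2, CARS2 and TARS2 high, and HARS1 is high and HARS2 low. HARS1 is as high in TGFb1 array 4, and CARS2 is shown by its brightest probe set, which its dimmer ones did not follow.

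Histidine ran the other way from the rest of the opposite pairs, with the cytosolic gene up and the mitochondrial gene down. The within-array difference of HARS1 minus HARS2 was 1.84 to 1.94 with acriflavine, against 0.38 to 0.98 with TGFb1 alone. These genes stand head to head on chromosome 5, and their RefSeq starts are 85 bases apart. The 84 bases that lie between the starts are shown because they belong to the promoter windows of both genes, read on the strand of HARS2 with no part in capitals. Neither window holds the ATF4 core.
HARS1 to HARS2 (chr5:140691371-140691454): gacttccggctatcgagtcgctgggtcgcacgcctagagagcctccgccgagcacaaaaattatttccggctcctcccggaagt

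G and C made up 59.5% of these bases. The difference of HARS1 minus HARS2 was 0.98 to 1.20 with valproate and 0.43 to 0.56 in control arrays. HARS1 was at 9.94, 9.45 and 9.56 with valproate and at 9.29, 9.35, 9.37 and 9.63 in control arrays, and HARS2 was at 8.74, 8.41 and 8.59 with valproate and at 8.79, 8.92, 8.81 and 9.14 in control arrays. HARS2 thus lay in the same range with valproate as with acriflavine, while HARS1 was above the other arrays in the acriflavine group and in TGFb1 array 4.

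Acriflavine with TGFb1 was also set against control and against valproate with TGFb1. These comparisons use the same 3 acriflavine arrays as the one above, so their values stand side by side and add no separate evidence. Against control, 13 cytosolic members fell and 3 rose, where 21.6% of all genes fell and 26.1% rose, with a median change of -0.77 for the cytosolic members and 0.04 for all genes. Against valproate, 13 fell and 3 rose, where 23.3% of all genes fell and 28.3% rose, with a median of -0.58, and 0.04 for all genes. EPRS1 changed by -2.07 ± 0.139 against control and -1.90 ± 0.149 against valproate, and WARS1 by -1.69 ± 0.177 and -1.45 ± 0.189. In neither comparison did the arrays of a called cytosolic member overlap. HARS1 was 1.05 ± 0.209 relative to control and 0.80 ± 0.224 relative to valproate, and FARSA was 0.63 ± 0.109 and 0.69 ± 0.116. KARS1 stood 0.46 ± 0.0614 above control and 0.84 ± 0.0656 above valproate.

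Of the mitochondrial members, 6 rose and 3 fell with acriflavine against control, and 4 rose and 1 fell against valproate. Over all genes tested, 26.1% rose and 21.6% fell against control, and 28.3% rose and 23.3% fell against valproate. FARS2, the phenylalanine enzyme of mitochondria, was 0.50 ± 0.0994 relative to control, and EARS2 was 0.54 ± 0.121. The calls of IARS2 (-0.19 ± 0.0712), NARS2 (-0.26 ± 0.0969) and SARS2 (0.56 ± 0.19) against control were lost when single arrays were left out, any one of the acriflavine arrays in IARS2 and either of arrays 1 and 2 in the other genes. With the mean of a gene's probe sets in place of its brightest, the calls of FARS2 (0.23, adjusted p = 0.0732 by limma) and SARS2 (0.23) were lost, and CARS2, which rose by 0.35 ± 0.0728, changed by -0.14 without passing. Against valproate the largest differences were in SARS2 (0.87 ± 0.204), EARS2 (0.84 ± 0.129) and WARS2 (0.76 ± 0.0967), all higher with acriflavine, and in AARS2 (-0.66 ± 0.094), lower with acriflavine. For CARS2 and HARS2 the difference between the compounds was 0.07 ± 0.0779 and -0.0027 ± 0.157, and neither passed. With the mean of its probe sets CARS2 passed in the direction of lower with acriflavine (-0.32, adjusted p = 0.0135 by limma).

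Valproate on top of TGFb1 was likewise set against TGFb1 alone. Of 19 cytosolic members 2 fell, 0 rose and 17 did not pass, where 16.2% of all genes fell and 15.1% rose, and the median change was -0.04 (-0.0063 for all genes). KARS1 had 11.99, 11.92 and 11.97 with valproate, against 12.47, 12.48, 12.42 and 12.47 with TGFb1 alone (change -0.50 ± 0.0614, adjusted p = 4.02e-05 by limma). All 3 valproate arrays lay below the 4 TGFb1 arrays, and the acriflavine arrays lay above them. FARSA had 8.67, 8.51 and 8.86 with valproate, against 8.95, 9.18, 8.92 and 8.98 with TGFb1 alone (change -0.33 ± 0.109, adjusted p = 0.0332), again without overlap. The FARSA call was lost without TGFb1 array 2 or without valproate array 1 or 2, with renewed quantile normalisation (adjusted p = 0.0567 by limma) and with these 2 groups alone (0.0812). Of the duct markers 1 of 5 rose with valproate, and COL3A1 changed by -0.94 ± 0.134. Among markers too dim to be tested, LUM, a fibroblast marker, was at 5.81 to 6.36 with valproate, against 3.36 to 3.61 with TGFb1 alone. SERPINA1, a hepatocyte marker, was at 5.95 to 6.10 with valproate, against 4.79 to 5.23 with TGFb1 alone. CDH5, an endothelial marker, was lower, at 5.08 to 5.14 with valproate, against 5.20 to 5.46 with TGFb1 alone. The remaining dim markers, COL1A2, DCN and PDGFRB of the fibroblast list among them, overlapped between these groups. The part of these markers in the result was not tested.

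EPRS1 was at 11.47, 11.70 and 11.55 with valproate, against 11.57, 11.13, 11.65 and 11.15 with TGFb1 alone, and did not pass (0.20 ± 0.139). The cytosolic count depended on TGFb1 array 4. Without that array 6 cytosolic members passed in place of 2, and AARS1 (-0.34), YARS1 (-0.37) and FARSB (-0.26) were then lower with valproate and RARS1 (0.20) higher. In that array 15 of 19 cytosolic members were below the mean of TGFb1 arrays 1 to 3, the median difference over all 19 was -0.25, and the part of this in the result was not tested.

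Of the 16 mitochondrial synthetases, 6 fell with valproate, 1 rose and 9 did not pass (median change -0.06), where 16.2% of all genes fell and 15.1% rose. SARS2, for serine, had 9.19, 8.63 and 9.33 with valproate, against 9.67, 10.26, 9.45 and 9.58 with TGFb1 alone (change -0.69 ± 0.19, adjusted p = 0.013 by limma). Its valproate arrays were all lower, with array 2 the lowest, and the call was lost without that array. EARS2 had 8.56, 8.22 and 8.49 with valproate, against 8.75, 9.02, 8.74 and 9.24 with TGFb1 alone (change -0.51 ± 0.121). WARS2 had 7.64, 7.59 and 7.64 with valproate, against 7.94, 8.14, 7.84 and 7.88 with TGFb1 alone (change -0.32 ± 0.0904). In both genes the valproate mean lay below and the acriflavine mean above that of TGFb1 alone. HARS2 (-0.58 ± 0.147), RARS2 (-0.35 ± 0.0751) and NARS2 (-0.34 ± 0.0969) also fell, without overlap with the TGFb1 arrays. The WARS2 call was lost without valproate array 2, and the NARS2 call without valproate array 1 or 3. In a fit of these 2 groups alone the calls of HARS2, SARS2 and WARS2 were lost, with adjusted p of 0.0509, 0.0668 and 0.0546 by limma.

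CARS2 was the mitochondrial member that rose with valproate, with 9.01, 9.08 and 9.17, against 8.62, 8.66, 8.71 and 8.69 with TGFb1 alone (change 0.42 ± 0.0728). Its 2 dimmer probe sets changed by 0.14 and 0.15, and with the mean of its probe sets the call was lost (0.23, adjusted p = 0.0688 by limma). RARS2 had 10.40, 10.31 and 10.42 with valproate, against 10.74, 10.68, 10.63 and 10.87 with TGFb1 alone, and RARS1 had 12.12, 11.95 and 11.90 with valproate, against 11.82, 11.78, 11.78 and 12.00 with TGFb1 alone, so that the cytosolic minus mitochondrial difference for arginine was 1.48 to 1.72 with valproate, against 1.08 to 1.15 with TGFb1 alone. For tryptophan it was 3.53 to 3.80 with valproate, against 2.58 to 3.43 with TGFb1 alone. These were the 2 of 13 pairs whose within-array differences did not overlap between the groups, and in both the difference was higher with valproate. The share of all gene pairs that separate in this way was not computed. In 6 pairs the mitochondrial gene alone was called, and in 7 neither was.

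Valproate with TGFb1 against control gave 3 falls and 0 rises among the cytosolic members (19.8% of all genes fell and 16.9% rose, median changes -0.14 and -0.02) and 2 falls and 4 rises among the mitochondrial ones. NARS1 (-0.53 ± 0.106), KARS1 (-0.38 ± 0.0614) and TARS1 (-0.25 ± 0.0845) were the cytosolic falls. WARS2 (-0.43 ± 0.0904) and NARS2 (-0.32 ± 0.0969) were lower than in control arrays, and FARS2 (0.47 ± 0.0994), VARS2 (0.33 ± 0.0746), CARS2 (0.28 ± 0.0728) and AARS2 (0.27 ± 0.0879) higher. The calls of TARS1, AARS2 and NARS2 were each lost without valproate array 1 or 3, among other single arrays, and the calls of CARS2 (0.18, adjusted p = 0.132 by limma) and AARS2 (0.21) with the mean of probe sets. Without TGFb1 array 4, which enters this comparison through the shared spread alone, 5 cytosolic and 10 mitochondrial members passed.

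TGFb1 alone was compared with control as the state on which both compounds acted. Among the members, 1 cytosolic gene fell and 2 mitochondrial genes rose in the fit without paired arrays, where 9.97% of all genes fell and 8.39% rose. The median change was -0.12 for the cytosolic, 0.09 for the mitochondrial members and 0.0016 for all genes. NARS1 had 12.51, 12.19, 12.64 and 12.31 with TGFb1, against 12.64, 12.78, 12.79 and 12.73 in control arrays (change -0.32 ± 0.0978, adjusted p = 0.0352 by limma). The arrays were apart by a very narrow margin, and the call was lost without any one of control arrays 2, 3 and 4, TGFb1 array 2 and acriflavine array 1. FARS2 had 8.56, 8.79, 8.41 and 8.77 with TGFb1, against 8.21, 8.33, 8.18 and 8.35 in control arrays (change 0.36 ± 0.092), and VARS2, for valine, had 8.85, 9.02, 8.84 and 8.84 with TGFb1, against 8.62, 8.58, 8.59 and 8.76 in control arrays (change 0.25 ± 0.0691). Every TGFb1 array was above every control array in both genes, and the VARS2 call was lost without control array 2 or 3. In a fit of these 2 groups alone none of the calls of NARS1, FARS2 and VARS2 held, with adjusted p of 0.118, 0.0712 and 0.115 by limma. With TGFb1 against control, 3 of the 5 duct markers fell and COL3A1 rose (0.73 ± 0.124). Too dim to be tested, ITGAM was at 5.16 to 5.58 with TGFb1, against 6.01 to 7.32 in control arrays. SERPINA1, also too dim, was at 4.79 to 5.23 with TGFb1, against 5.27 to 5.72 in control arrays. The other markers too dim to be tested overlapped between these groups. The part of these markers in the result was not tested.

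WARS1 had 11.32, 11.27, 11.26 and 10.46 with TGFb1, against 11.79, 11.48, 11.59 and 11.36 in control arrays, and EPRS1 had 11.57, 11.13, 11.65 and 11.15 with TGFb1, against 11.84, 11.68, 11.84 and 11.62 in control arrays. Neither passed (WARS1 -0.48 ± 0.164, adjusted p = 0.0585; EPRS1 -0.37 ± 0.129, adjusted p = 0.0595 by limma). The WARS1 arrays did not overlap, and in EPRS1 TGFb1 array 3 lay just above control array 4. With the replicate number as a block, both passed (adjusted p = 0.00599 for WARS1 and 0.0183 for EPRS1), which made 3 cytosolic falls. In replicates 1 to 3 the cytosolic members' TGFb1 minus control difference had a median of 0.01, and in replicate 4 it was -0.30.

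Genes that work beside the synthetases were taken from 4 lists. The lists were chosen with earlier results of these data known, so their counts and medians are descriptions. Of partner and tRNA-handling genes, 7 of 10 were tested, and with acriflavine against TGFb1 2 fell and 1 rose (median change 0.10). Over all genes tested, 19.1% fell and 24.5% rose in this comparison. XPOT, which exports tRNA from the nucleus, fell by more than any synthetase (9.80 ± 0.121 with acriflavine, against 12.47 ± 0.244 with TGFb1 alone, SD, n = 3 and 4; change -2.66 ± 0.137). DTD1, a deacylase that removes D-amino acids from tRNA, fell (-0.59 ± 0.0991) and NSUN2, a tRNA methyltransferase, rose (0.28 ± 0.0916). AIMP1, a scaffold protein of the multisynthetase complex, did not pass (0.19 ± 0.114). Set against TGFb1, DTD1 rose with valproate (0.60 ± 0.0991), NSUN2 fell (-0.34 ± 0.0916) and XPOT did not pass (-0.17 ± 0.137).

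Of 8 cytosolic elongation and release factor genes, 2 fell with acriflavine and 0 rose (median change -0.14), where 19.1% of all genes fell and 24.5% rose. EEF2, which moves the ribosome along the message, changed by -0.35 ± 0.1, and EEF1D, part of the exchange factor that recharges the tRNA carrier eEF1A, by -0.23 ± 0.0813. Of 14 genes of mitochondrial tRNA charging and translation, 13 were tested, 5 rose and 1 fell (median change 0.18), beside the same shares of all genes. MTFMT, which formylates the mitochondrial initiator tRNA, rose (0.60 ± 0.11), as did the elongation factor GFM1 (0.49 ± 0.113) and the ribosome recycling factor MRRF (0.39 ± 0.096), and MTO1, which modifies mitochondrial tRNA, fell (-0.26 ± 0.0966). With valproate 1 of the 13 rose and 3 fell, MRRF (-0.38 ± 0.096) and MTO1 (-0.34 ± 0.0966) among them, where 15.1% of all genes rose and 16.2% fell.

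Of 8 genes of the uncharged-tRNA response, 5 fell and 2 rose with acriflavine (median change -0.68), where 19.1% of all genes fell and 24.5% rose. This list too was chosen with earlier results of these data known. PHGDH, the first enzyme of serine synthesis, was at 8.18 ± 0.122 with acriflavine, against 11.93 ± 0.403 with TGFb1 alone (SD, n = 3 and 4), and ATF4 itself at 12.44 ± 0.0104 with acriflavine, against 13.48 ± 0.248 with TGFb1 alone (change -1.04 ± 0.111). ASNS, asparagine synthetase, changed by -3.06 ± 0.219 and the pseudokinase gene TRIB3, an ATF4 target, by -2.27 ± 0.362. The remaining called genes, named after their values were seen, were EIF2AK4 (0.50 ± 0.14) and EIF2S1 (0.41 ± 0.0782), for the kinase GCN2 and its substrate eIF2 alpha, which rose, and GCN1 (-0.32 ± 0.105), for a GCN2 activator, which fell. DDIT3, which encodes the stress transcription factor CHOP, did not pass (0.51 ± 0.234). With valproate ATF4 (-0.01 ± 0.111), PHGDH (0.27 ± 0.182) and TRIB3 (0.07 ± 0.362) did not pass. Of the 8 genes 2 fell (GCN1 and EIF2S1) and 0 rose with valproate, where 16.2% of all genes fell and 15.1% rose.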

How the data were processed

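RNA of 14 cultures was hybridised to Affymetrix expression arrays. The authors deposited RMA values on the log2 scale, made with the R package affy 1.44.0 per the submitters' processing notes. Which arrays were normalised together is not given in the sources used here. The table held 49193 probe sets, of which 44898 named 1 gene. The brightest of a gene's probe sets was kept, and the dimmest 40% of genes (7252) were left out. Linear models with 1 mean per group over all 14 arrays were fitted with limma 3.58.1 in R 4.3.3. The p-values of each of 6 comparisons were adjusted by Benjamini-Hochberg over 10877 genes, with a threshold of 0.05. Precision is limited by the number of arrays.

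The fit was tested on simulated data with independent normal spread in every array. Shared deviations of same-numbered arrays and an outlying array such as TGFb1 array 4 were not simulated. The simulation therefore cannot speak for calls that depend on them. The members and the lists of related genes and markers were chosen with earlier results of these data known, and all lists are described by counts and medians only. Every member could be named; per-array values are given for the largest falls and rises of a comparison, for cytosolic and mitochondrial pairs called differently, and for FARSA, FARSB and WARS1, and related genes were limited to 3 called and 1 not called per list, with ATF4 always given and with EIF2AK4, EIF2S1 and GCN1 added after their values were seen. For TGFb1 and control, same-numbered arrays deviated together from their group means (correlations over genes of 0.387, 0.359, 0.543 and 0.705). They passed a rule for pairs of more than 0.1 in every replicate, and the other comparisons did not. The main fit had no term for pairs, so its calls of TGFb1 against control leave this pairing out. It was taken into account in the replicate block alone. Alternatives were other brightness limits, probe set choices, scalings, variance models and thresholds, fits of 2 groups alone, the replicate block, and arrays left out. Leaving out the arrays numbered 4 together with TGFb1 array 2 was chosen after seeing the data. Promoter windows are RefSeq's (GRCh38.p14), while the arrays' own build was not used here. Acriflavine without TGFb1 was not analysed here. The plots were made with matplotlib 3.10.9 in Python 3.11.15.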

Additional observations from a re-analysis of the deposited data

Results flagged for a closer look

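Within each group of 4, an array was marked where its gap to the nearest other array exceeded Dixon's 95% critical value as a share of the group's range. Chance marks about 1 in 20 independent groups. Here 10 of 74 sets were marked, but the sets share the same arrays, and the class medians are made from the members. The count therefore cannot be judged against that rate. TGFb1 array 4 was low in 5 cytosolic synthetases, with AARS1 at 10.25 (other TGFb1 arrays 10.85 to 10.92), IARS1 at 12.14 (12.30 to 12.33), SARS1 at 11.09 (12.21 to 12.32), WARS1 at 10.46 (11.26 to 11.32) and YARS1 at 10.69 (11.46 to 11.52). The median of the 19 cytosolic members was also low in that array, at 11.15 (11.74 to 11.82). The mitochondrial tyrosine enzyme YARS2 was low in both arrays numbered 4, at 9.87 in TGFb1 array 4 (other TGFb1 arrays 10.07 to 10.10) and at 9.85 in control array 4 (other control arrays 10.09 to 10.13). LARS2, the mitochondrial leucine enzyme, was high in control array 4 at 8.13 (8.03 to 8.05), and VARS2 was high in TGFb1 array 2 at 9.02 (8.84 to 8.85). Falls of the cytosolic members with acriflavine against TGFb1 were called in 13 genes with TGFb1 array 4 left out.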

How the results depend on the processing

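Over all settings tried, members kept their side of the threshold and direction in 5100 values, lost a call in 111 and gained one in 99. In 137 values, of 48 changes of at most 0.203 in size, a change that passed in neither setting took the opposite sign, among them AARS1, CARS1, GARS1, MARS1, RARS1 and NARS2 for TGFb1 against control without the arrays numbered 4. In 7 values the direction turned where the change passed in at least 1 setting. These were the changes of CARS2 with the mean of its probe sets (-0.0903 with acriflavine against TGFb1, -0.139 against control and -0.323 against valproate) and, with valproate against TGFb1, those of SARS1 without the arrays numbered 4 (-0.27), and of SARS1 (-0.30), GARS1 (-0.22) and QARS1 (0.27) without those and TGFb1 array 2.

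Cytosolic members passing with acriflavine were 15 to 16 against TGFb1 and 16 against control and valproate with any single array left out. The mitochondrial median against TGFb1 was -0.068 with the mean of probe sets, 0.023 with the replicate block, 0.032 without the arrays numbered 4, 0.013 also without TGFb1 array 2 and 0.032 to 0.095 with single arrays left out, and 4 mitochondrial members passed with the mean of probe sets. Against control that setting gave a median of 0.014. Against valproate 8 mitochondrial members passed without the arrays numbered 4, and 8 also without TGFb1 array 2.

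With valproate against TGFb1, 1 cytosolic member passed with renewed quantile normalisation, with 2 groups alone and at an adjusted p of 0.01, 8 without the arrays numbered 4 (median -0.173), 10 also without TGFb1 array 2 (median -0.2), and 1 to 6 with single arrays left out (median -0.173 to -0.004). For mitochondrial members 4 passed with 2 groups alone and 4 at an adjusted p of 0.01. Against control, 7 cytosolic members passed with the replicate block and 8 in both settings without the arrays numbered 4. Single arrays left out gave 2 to 5 there, with 4 to 10 mitochondrial members and a mitochondrial median of -0.146 to -0.079. The mitochondrial median was -0.146 in both settings without the arrays numbered 4, and 11 mitochondrial members passed when TGFb1 array 2 was left out as well.

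For TGFb1 against control, the pairing of replicates as a replicate block gave 3 cytosolic members, the mean of probe sets gave 3, and 2 groups alone and an adjusted p of 0.01 gave 0 in either class. Single arrays left out gave 0 to 3 cytosolic and 1 to 2 mitochondrial members, with a cytosolic median of -0.138 to 0. That median was 0.008 without the arrays numbered 4, and the mitochondrial one -0.006 also without TGFb1 array 2. The causes were not tested.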
